A study of Mus musculus with 24 samples.

Results

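The high-numbered entries, miR-7095 and above, are the 202 mouse miRNAs, of 1881 on the array, whose names carry that number or a later one. They were taken by name among the rows that are not controls, a rule that uses no measured value. The set was chosen with earlier results of these data known. Of the 202, 10 carry numbers below 7200, 68 numbers from 7200 to below 7300, 89 numbers from 7300 to below 8000, and 35 numbers of 8000 or above. An entry counted as well above background (in short, above background) where the scanner software marked more than a 0.5 share of its probe spots so. By that measure 48 of the 202 were well above background on at least 1 of the 24 arrays, 10 were so on all 24 arrays, and 154 were so on none.

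The arrays measured microRNA in serum exosomes, small vesicles that cells release into blood, of male BALB/c mice. The TSN groups received toosendanin, a plant triterpenoid known to be toxic to liver, with a dose of 80 mg/kg and dosing for 3, 9 or 21 days. The control groups received vehicle for the same 3 durations, and each of the 6 groups has 4 arrays. Whether samples were single animals or pools is not stated in the labels, so p-values cover only the spread seen among the samples, which may be technical. The age of the mice and the way exosomes were isolated are not given in the sources used here. As a check of the serum label, the red cell miRNAs miR-451a, miR-486a-5p, miR-16-5p and miR-144-3p were well above background on all 24 arrays, while the brain miRNAs miR-9-5p and miR-124-3p were so on none. Of the other marker miRNAs, those of platelets and white cells were above background on all 24 arrays (miR-223-3p, miR-126a-3p and miR-142a-3p) and on 12 TSN and 6 control arrays (miR-150-5p). Their median scaled log2 levels were 0.35, -2.57, -0.25 and -5.50 in TSN in that order, against 0.88, -2.08, 0.34 and -4.38 in control. Those of liver were so on 12 TSN and 9 control arrays (miR-122-5p) and on all 24 (miR-192-5p). Those of muscle were so on 12 TSN and 3 control arrays (miR-1a-3p), on 11 TSN and 0 control arrays (miR-133a-3p) and on none (miR-206-3p), and the part of other cell types in the results was not tested.

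MicroRNAs are short RNAs cut from hairpin precursors, and they lower the output of messenger RNAs that pair with their seed, the stretch of bases 2 to 8. A hairpin can give a mature strand from each of its sides, named 5p and 3p. Numbers are given in the order in which miRNAs enter the public registry, so high numbers are late entries, many of them found by deep sequencing of small RNA, and few have a known function. Exosomes in blood carry miRNAs of blood cells and of organs, and some liver miRNAs are used as blood markers of liver injury.

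RefSeq (GRCm38.p6) held the mature sequence of 177 of the 202 entries and of 39 of the 48 seen above background. The sequences shown are those of the entries with the results that follow, 5′ to 3′, with the seed in capitals. The first set rose in the TSN groups at all 3 days, or shares a seed with an entry that did (miR-8119).
miR-7668-3p: cGGUGCAGgggauucagaggag
miR-8090: gAAGCGCAguggaggucugu
miR-8113: cAGGAGAGucaggggcaaguag
miR-8119: gAGGAGAGggagcuaggguc
miR-8117: gCUCGUGUggaacagaagggg
miR-7687-5p: aGGCGGGGaaccugaggcgcaggcu
The second set was lower in the TSN groups at 2 or more of the days.
miR-7221-3p: uGACUGUGggcuggggacugg
miR-7686-5p: cCUUCCACuggaccuggggcugggc
miR-8105: aGGCGACUggcgagacccgaag
miR-8110: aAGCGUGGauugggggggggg
miR-7241-5p: aCUUGCAUgaguuaauacccacc
miR-7687-3p: cCACUCAGucgccccgccaca
The third set changed its difference between the arms from day to day.
miR-7217-5p: aACUUGUAucuugugagacagaagg
miR-8093: uUGGGGAGcagagcaugagug
miR-7118-5p: uGGGGAAGgcgggagagggaac
Shared seeds were few. miR-8113 and miR-8119 carry the same seed as miR-7012-5p and miR-7057-5p of the array's lower numbers, miR-7221-3p that of miR-679-5p, and miR-7648-3p that of miR-762 and miR-6940-5p. In all, 28 of the 177 shared a seed with another mouse miRNA of the table, and 5 of these 28 were seen above background.

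The entries lie at separate places in the genome (GRCm38.p6), mostly within the span of another gene, as 125 of the 177 did. miR-7668-3p lies at chr7:29906546-29906567 on the plus strand, within the span of the zinc finger gene Zfp27. miR-8090 lies at chr19:47755062-47755081 on the minus strand within Cfap43, a gene of the cilium and sperm tail, and miR-8117 at chr5:50252823-50252843 on the plus strand within the long noncoding RNA Gm40301. miR-8113 lies at chr6:125234756-125234777 on the minus strand within Cd27, a receptor of lymphocytes, and miR-8119 at chr4:129557756-129557775 on the minus strand within Lck, a kinase of T cells. The table used gives gene spans and neither exons nor gene strands. Exonic, intronic and antisense positions were therefore not separated. miR-8110, at chr8:89024791-89024811, lies in no annotated gene span, and neither do miR-8105, miR-7217-5p and miR-7221-3p.

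The 2 strands of hairpin 7687 lie within Gse1, with the 5p strand at chr8:120538696-120538720 and the 3p strand at chr8:120538734-120538754. miR-7686-5p lies within the long noncoding RNA Gm16201, at chr7:139957598-139957622, and miR-7118-5p within Plxnb2, a receptor for semaphorins, at chr15:89162882-89162903. A few entries are neighbours. The mature sequences of miR-7221 and miR-7222 are 2376 bases apart on chromosome 2, those of miR-7217 and miR-7218 are 2335 bases apart on chromosome 17, and miR-7216 lies 27330 bases from miR-7217.

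More of the entries were seen in the TSN arms, as was so for the whole array. Of the 202, 46 were well above background on at least 1 TSN array and 31 on at least 1 control array, while 31 were so on all 12 TSN arrays and 10 on all 12 control arrays. As shares of the 202 these are 22.8% in TSN and 15.3% in control for at least 1 array, and 15.3% in TSN and 4.95% in control for all 12, against 28.2%, 19.6%, 19.2% and 8.19% of all 1881 miRNAs in the same order. The entries miR-8090, miR-8093, miR-7671-3p and miR-7681-3p were above background on all 12 TSN arrays and on 0 control arrays, 4 entries or 1.98% of the 202, against 1.97% of all miRNAs. The reverse pattern, above background on some control arrays and on 0 TSN arrays, was seen for miR-7241-5p and miR-7687-3p, each on 8 control arrays, or 0.99% of the 202 against 0.744% of all.

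Per array, the count of entries above background averaged 35.8 ± 3.95 in TSN and 18 ± 4.24 in control at day 3, 38.3 ± 1.26 in TSN and 16.5 ± 5.92 in control at day 9, and 38.8 ± 3.20 in TSN and 20.3 ± 7.37 in control at day 21 (SD, n = 4 each). The arms did not overlap at any day, with 31 to 41 entries on TSN arrays and 12 to 29 on control arrays. The exact two-sided permutation p was 0.0286 at each day, the smallest that 4 against 4 arrays can give, and 0.0643 after adjustment over the 9 tests of this kind, which does not pass 0.05. As a share of all miRNAs above background on an array, the entries made up 8.28%, 8.77% and 8.47% in TSN at days 3, 9 and 21, against 7.64%, 7.37% and 7.28% in control (exact permutation p = 0.0857, 0.0286 and 0.0571, adjusted p = 0.11, 0.0643 and 0.103). As a share of the summed signal they made up 6.29%, 4.87% and 5.32% in TSN at those days, against 7.30%, 5.48% and 4.85% in control (exact permutation p = 0.143, 0.0857 and 0.229, adjusted p = 0.161, 0.11 and 0.229).

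**Figure D1:**
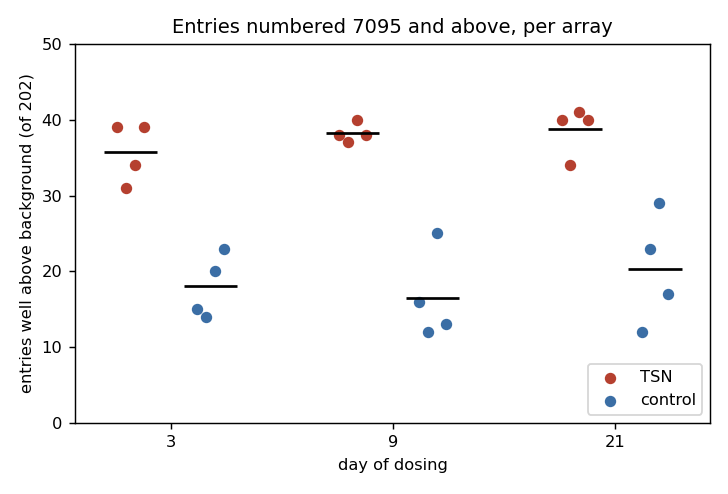
Number of the 202 entries from miR-7095 upward that were well above background on each array (vertical axis), by day of dosing and arm; each point is 1 array and each bar the mean of 4. TSN arrays held 31 to 41 of the entries and control arrays 12 to 29.

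The arrays of the arms also differed in brightness as a whole. The 75th percentile of the unscaled signal, over probes well above background on all arrays, was 737 to 1748 on TSN arrays and 73.5 to 609 on control arrays. Control day 21 replicate 3, with a 75th percentile of 609, had 29 entries above background, and control day 9 replicate 4, with 73.5, had 13. The part of brightness in the counts above was not tested. Each array was divided by its own 75th percentile before log2 was taken, and a level of 0 is that percentile. Over the 152 miRNAs above background on all 24 arrays, the median unscaled change was 2.83, 3.16 and 2.44 (log2, TSN minus control, no floor) at days 3, 9 and 21, and changes below are given after scaling. The arms lay on different slides, 4 in all, and were scanned on different days. TSN day 3 had its own slide, and TSN days 9 and 21 lay together. Control days 3 and 9 lay together, and control day 21 had its own slide. Effects of arm cannot be told apart from those of slide and scan day.

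Entries with no strand ending in their name were seen most often. At least 1 array showed 17 of 32 of them (53.1%), against 17 of 85 with the ending 5p (20%) and 14 of 85 with 3p (16.5%). By number, 18 of 35 entries from 8000 upward were seen, 15 of 89 from 7300 to below 8000, 14 of 68 from 7200 to below 7300, and 1 of 10 below 7200, which was miR-7118-5p. Among 85 hairpins with both strands on the array, both strands were seen for 6 (7218, 7221, 7241, 7648, 7686 and 7687), only the 5p strand for 11, only the 3p strand for 8, and neither for 60. The whole set was seen at 23.8%, against 24.8% of the 400 miRNAs from miR-6896 to miR-7094, 28.3% of the 180 from miR-5000 to miR-6895 and 31.5% of the 1099 others, which are descriptions with no test.

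The 10 entries above background on all 24 arrays can be followed in every sample. miR-8110 had an unscaled signal of 7626 to 15035 (median 11078) on TSN arrays and 812 to 4448 (median 1724) on control arrays. After scaling its level was 3.19 ± 0.34, 3.08 ± 0.11 and 2.84 ± 0.19 in TSN at days 3, 9 and 21, against 3.93 ± 0.19, 3.48 ± 0.18 and 3.21 ± 0.24 in control (SD, n = 4 each). Its scaled level was lower in TSN at day 3 by limma (change -0.74, SE 0.16, adjusted p = 0.000434) and at day 9 (-0.40, adjusted p = 0.0326), and did not pass at day 21 (-0.37, adjusted p = 0.0619). Other scalings are read here relative to the median miRNA tested, and without scaling, signals under 9.63 were set to that floor. The direction of miR-8110 turned to 0.01 at day 3 without scaling. At day 9 it turned to 0.19, 0.71 and 0.04 with a percentile over all probes, no scaling and spike-ins. With normexp background correction miR-8110 was higher in TSN and passed at days 3, 9 and 21. The values were 1.27, 2.09 and 1.29 (limma adjusted p = 8.9e-06, 2.95e-09 and 1.25e-05).

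miR-8117 was higher in TSN at every day. Its scaled level on the 4 TSN arrays was -0.80, -1.08, -1.31 and -0.58 at day 3, -0.90, -1.51, -0.69 and -1.49 at day 9, and -0.49, -0.92, -0.74 and -0.27 at day 21. On the control arrays it was -2.41, -1.70, -2.01 and -1.74 at day 3, -1.76, -2.17, -1.84 and -1.91 at day 9, and -1.39, -1.59, -1.31 and -1.95 at day 21. The arms did not overlap within any day. The changes were 1.02 (SE 0.21, limma adjusted p = 0.000385), 0.77 (adjusted p = 0.00347) and 0.95 (adjusted p = 0.000898) at days 3, 9 and 21, and stayed positive and past the threshold under every alternative run for it, between 0.49 and 1.98.

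miR-7686-5p was lower in TSN at every day. Its TSN levels were -2.24, -1.74, -2.21 and -2.41 at day 3, -2.30, -2.65, -2.22 and -2.66 at day 9, and -2.30, -2.07, -2.06 and -1.75 at day 21. Its control levels were -1.30, -1.08, -0.93 and -0.61 at day 3, -1.50, -1.58, -1.29 and -0.87 at day 9, and -1.48, -1.42, -1.49 and -1.38 at day 21. No TSN array reached the lowest control array of its day. The changes were -1.17 (SE 0.17, limma adjusted p = 8.63e-06), -1.15 (adjusted p = 9.46e-06) and -0.60 (adjusted p = 0.00775). Its unscaled signal was higher in TSN, at 219 to 399 against 29.2 to 217 in control, so that lower here means lower relative to the rest of the array. With normexp background correction the change relative to the median miRNA was 0.35, 0.58 and 0.41, and it passed at day 9 (limma adjusted p = 0.0216).

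The other entries seen on all arrays passed at 1 or 2 of the days, or at none. miR-7118-5p was lower in TSN at day 9 (-0.50, limma adjusted p = 0.0135) and higher at day 21 (0.48, adjusted p = 0.0245), with a change of -0.02 at day 3. Its direction turned at day 9 with a percentile over all probes (0.09) and without scaling (0.61). With normexp background correction it turned to 1.89 at day 9 and passed (limma adjusted p = 6.65e-08). At day 21 it turned with quantile normalization (-0.10). A second probe of miR-7118-5p had a change of -0.02 at day 9. miR-7235-5p was higher at day 3 (0.47, adjusted p = 0.016), with -0.11 at day 9 and 0.33 at day 21. miR-7241-3p (-0.74, adjusted p = 0.00098) and miR-8100 (-0.81, adjusted p = 0.00253) were lower at day 9, both turning without scaling (0.37 and 0.30), and neither passed at days 3 and 21. With normexp background correction both turned at day 9 and passed, at 0.81 and 0.84 (limma adjusted p = 0.00233 and 0.00116). miR-8101 was higher at day 21 (0.48, adjusted p = 0.00317). miR-7216-5p and miR-8102 passed at none of the 3 days, with changes of -0.06 to 0.02 and -0.17 to 0.19.

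**Figure D2:**
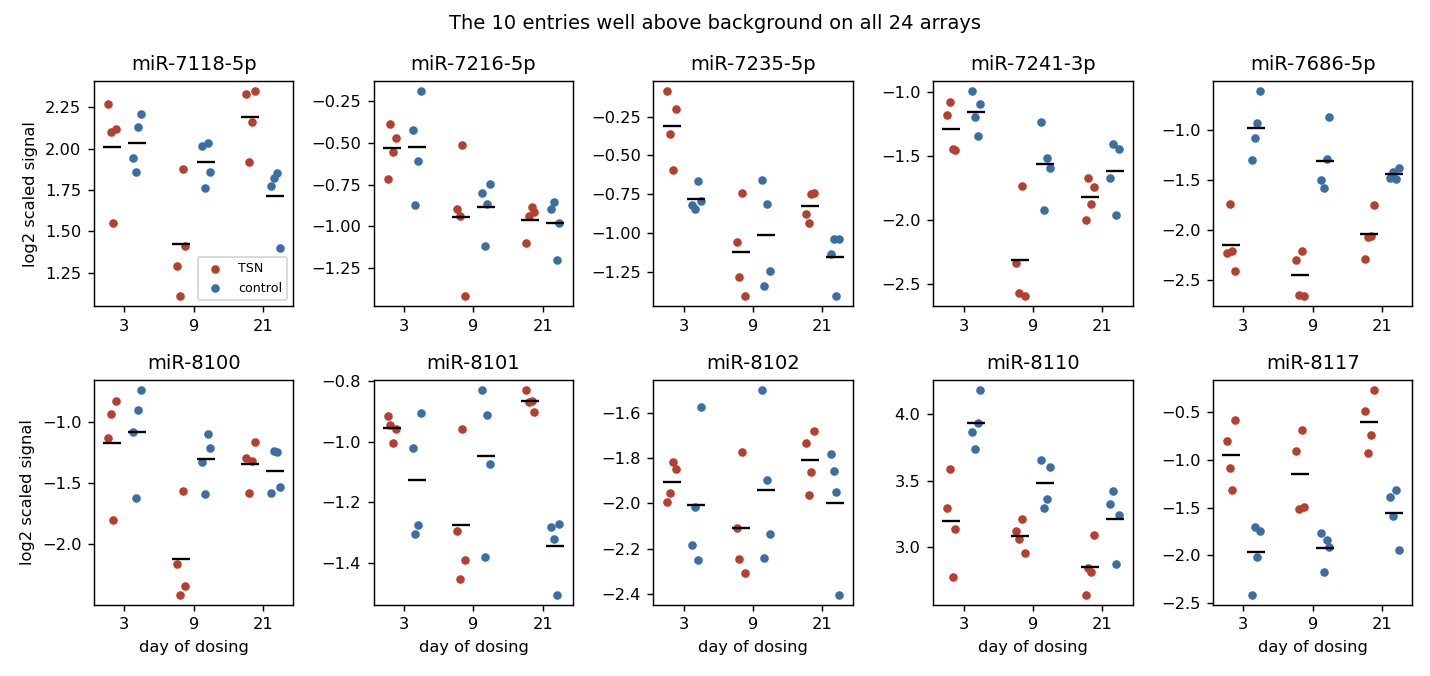
Log2 scaled signal (vertical axis, 0 is the 75th percentile of the array) of the 10 entries well above background on all 24 arrays, by day of dosing; each point is 1 array, TSN left of control, and each bar the mean of 4. TSN arrays lie above control at every day for miR-8117 and below it for miR-7686-5p, while miR-7216-5p overlaps throughout.

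TSN against control at day 3 asked what the shortest dosing changed. Of the 202 entries, 40 could be tested, being above background on each of the 4 arrays in 1 group or more. Of the 40, 12 were higher and 8 lower in TSN (limma with Benjamini-Hochberg adjustment over all 441 miRNAs tested, threshold 0.05), where 29.3% of all 441 were higher and 18.6% lower, 47.8% in either direction. The arrays of the arms did not overlap for 17 of the 40, against 40.6% of all. The median change was 0.02 over the 40 and 0.10 over all 441. Only 12 of the 40 were above background on every array of both groups, and 5 of those 12 were called, 2 higher and 3 lower. Such a count was not made for the whole array, here or at the later days.

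miR-7668-3p had the highest change at day 3. Its unscaled signal was 549, 181, 239 and 501 on the TSN arrays and 4.13, 4.30, 8.30 and 9.90 on the control arrays, of which 1 was above background. All TSN arrays lay above all control arrays, and the scaled change was 2.89 (SE 0.22, limma adjusted p = 5.55e-09). A second probe of miR-7668-3p was not above background on all arrays of any group. Its changes were 0.00, -0.03 and 0.00 at days 3, 9 and 21, so the result rests on the probe used. miR-8113 (unscaled signal 106, 34.8, 57.7 and 81.2 in TSN, -0.466 to 4.03 in control) was above background on 0 control arrays and was at least 1.13-fold higher (adjusted p = 1.91e-07). miR-7687-5p, also above background on 0 control arrays, was at least 1.25-fold higher (adjusted p = 4.63e-05). miR-8090 (adjusted p = 3.84e-07), miR-7671-3p (adjusted p = 7.03e-05), miR-7666-3p (adjusted p = 0.000245), miR-7219-5p (adjusted p = 0.016) and miR-7681-3p (adjusted p = 0.00165) were called higher too, but with no control array above background their size is not bounded here. Without scaling, miR-7671-3p read -0.63 relative to the median miRNA, with its control arrays raised to the floor of 9.63. Its unscaled signal itself was higher in TSN, at 16.9 to 42.6 against -0.145 to 2.43 in control.

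miR-7217-5p was higher at day 3 by 0.98 (SE 0.23, limma adjusted p = 0.00141), with scaled levels of -4.14, -4.04, -4.52 and -4.18 in TSN against -5.65, -5.62, -4.78 and -4.74 in control. Among entries lower in TSN, miR-7221-3p fell by 1.62 (SE 0.19, adjusted p = 3.37e-07), with levels of -5.23, -4.63, -5.25 and -5.26 in TSN against -3.80, -3.47, -3.40 and -3.21 in control. The groups did not overlap for either. miR-8105 fell by 1.34 (SE 0.24, adjusted p = 8.61e-05), miR-8108 by 0.43 (adjusted p = 0.0127) and miR-7222-3p by 0.41 (adjusted p = 0.0444). For miR-7217-5p, miR-7221-3p, miR-8108 and miR-7222-3p not every control array of day 3 was above background. A second probe of miR-7222-3p went the other way at day 3, by 0.38, and second probes of miR-8113 and miR-7221-3p had changes of 0.07 and -0.09. Among other measured probes of called entries, the sign was the same for 14 of 15 at day 3, 17 of 19 at day 9 and 15 of 16 at day 21. Sign takes no account of size. At day 9 the second probes of miR-7118-5p and miR-7222-3p had -0.02 and -0.05, against -0.50 and -0.73 for the probes used.

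With dosing for 9 days, the comparison of TSN with control gave 9 entries higher and 13 lower of the 40, where 27.4% of all 441 miRNAs were higher and 34% lower, 61.5% in all. Arrays of the arms did not overlap for 19 of the 40, against 51.9% of all. The median change was -0.02 over the 40 and -0.04 over all. Of 11 entries above background on every array of both groups, 7 were called, 1 higher (miR-8117) and 6 lower.

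At day 9 miR-7668-3p had an unscaled signal of 435, 359, 488 and 230 in TSN and 6.34, 3.56, 13.6 and 2.40 in control, a scaled change of 2.56 (SE 0.22, limma adjusted p = 3.29e-09). miR-7648-3p was higher by 0.93 (SE 0.21, adjusted p = 0.000628), with an unscaled signal of 128 to 175 in TSN and 3.61 to 20.8 in control, of which 1 array was above background. miR-8109 was higher by 0.79 (adjusted p = 0.0022) and miR-7687-5p by 0.81 (adjusted p = 0.000904). The arms did not overlap for these 4. miR-8090, miR-8113, miR-7219-5p and miR-7666-3p were called higher with 0 control arrays above background, and none had a bound over 1. The direction of miR-8090 turned to -0.01 without scaling, and miR-8109 (-1.19) and miR-8113 (-1.45) turned with the total gene signal.

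Apart from miR-7241-5p and miR-7687-3p, described further on, miR-8105 had the lowest change at day 9, with scaled levels of -3.96, -4.34, -3.40 and -3.99 in TSN and -1.85, -2.33, -1.78 and -1.74 in control, a change of -2.0 (SE 0.24, limma adjusted p = 4.8e-07). miR-7221-3p fell by 1.76 (SE 0.19, adjusted p = 6.71e-08), although a second probe of it had a change of 0.00. miR-7217-5p, higher at day 3, fell by 1.41 at day 9 (SE 0.23, adjusted p = 2.64e-05), with -5.62, -6.18, -5.23 and -6.21 in TSN, 1 of them at the floor, against -4.09, -4.97, -4.12 and -4.41 in control, where 1 array was above background. miR-8108 fell by 1.18 (SE 0.14, adjusted p = 2.38e-07) and miR-7222-3p by 0.73 (SE 0.16, adjusted p = 0.000607). A second probe of miR-7222-3p had a change of -0.05, and miR-7222-3p turned to 0.11 without scaling and to 0.12 with the total gene signal. All arrays of the arms were apart for these 5 after scaling. For miR-7221-3p, miR-8108 and miR-7222-3p not every control array was above background, so their sizes rest partly on dim control signals. Unscaled, these entries read 30.2 to 41.8, 30.6 to 42.0 and 68.4 to 81.8 in TSN, in that order. The control arrays read 6.57 to 24.8, 3.43 to 17.0 and 6.58 to 28.2.

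TSN against control at day 21 gave 15 entries higher and 4 lower of the 40, where 22.7% of all 441 miRNAs were higher and 21.3% lower, 44% in all. The arrays did not overlap for 19 of the 40, against 38.8% of all, and the median change was 0.04 over the 40 and 0.01 over all. miR-8090, miR-8093 and miR-7671-3p were called higher with 0 control arrays above background. The 4 lower calls became 2 without control day 21 replicate 1 and 2 without control day 21 replicate 4. Of the 10 entries above background on all arrays of both groups, 3 were higher (miR-8117, miR-8101 and miR-7118-5p) and 1 lower (miR-7686-5p).

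miR-8090 was above background on all 12 TSN arrays and on 0 control arrays, and was at least 2.88-fold higher at day 21 (limma adjusted p = 2.48e-09). Its unscaled signal was 185, 64.5, 171 and 160 on the TSN arrays and -0.111, 0.812, 2.45 and 0.177 on the control arrays. miR-8093 was at least 1.33-fold higher (adjusted p = 1.44e-05), at 65.2, 45.4, 65.7 and 77.0 in TSN and 1.79 to 8.22 in control. miR-7668-3p was higher by 2.60 (SE 0.22, adjusted p = 7.82e-09), with 509, 215, 326 and 352 in TSN against 3.12, 16.2, 23.1 and 6.61 in control, and 2 control arrays above background.

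At day 21 miR-7687-5p was higher by 1.16 (SE 0.19, limma adjusted p = 3.73e-05) and miR-8109 by 1.12 (SE 0.20, adjusted p = 0.000131), with 2 and 3 of the 4 control arrays above background. miR-7219-5p (adjusted p = 0.000131), miR-8113 (adjusted p = 1.88e-05) and miR-7666-3p (adjusted p = 3.06e-06) were also called higher, with 2, 1 and 1 control arrays above background. Control arrays at the floor numbered 2, 2 and 1 for these 3 entries, so the floor sets part of their change and no size is given. The direction of miR-8113 turned with the total gene signal (-1.32). miR-7221-3p was lower by 0.86 (SE 0.19, adjusted p = 0.000697), with a second probe at 0.06 and not every control array above background. miR-8105, lower at days 3 and 9, did not pass at day 21 (-0.20).

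Across the 3 days, 7 of the 40 entries were higher in TSN each time (17.5%, against 13.6% of all 441). These were miR-7668-3p, miR-8090, miR-8113, miR-7219-5p, miR-7687-5p, miR-8117 and miR-7666-3p. A further 4 (10%, against 12.9% of all) were lower each time, namely miR-7221-3p, miR-7686-5p, miR-7241-5p and miR-7687-3p. Another 12 of the 40 passed at no day, against 100 of all 441. In both directions at different days, 3 of the 40 passed (miR-7118-5p, miR-7211-3p and miR-7217-5p), against 14 of all 441. The 3 comparisons share no arrays, but they come from the same fit, with a shared estimate of the spread. Some of their groups also share a slide, and arm and slide cannot be told apart in any of them.

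**Figure D3:**
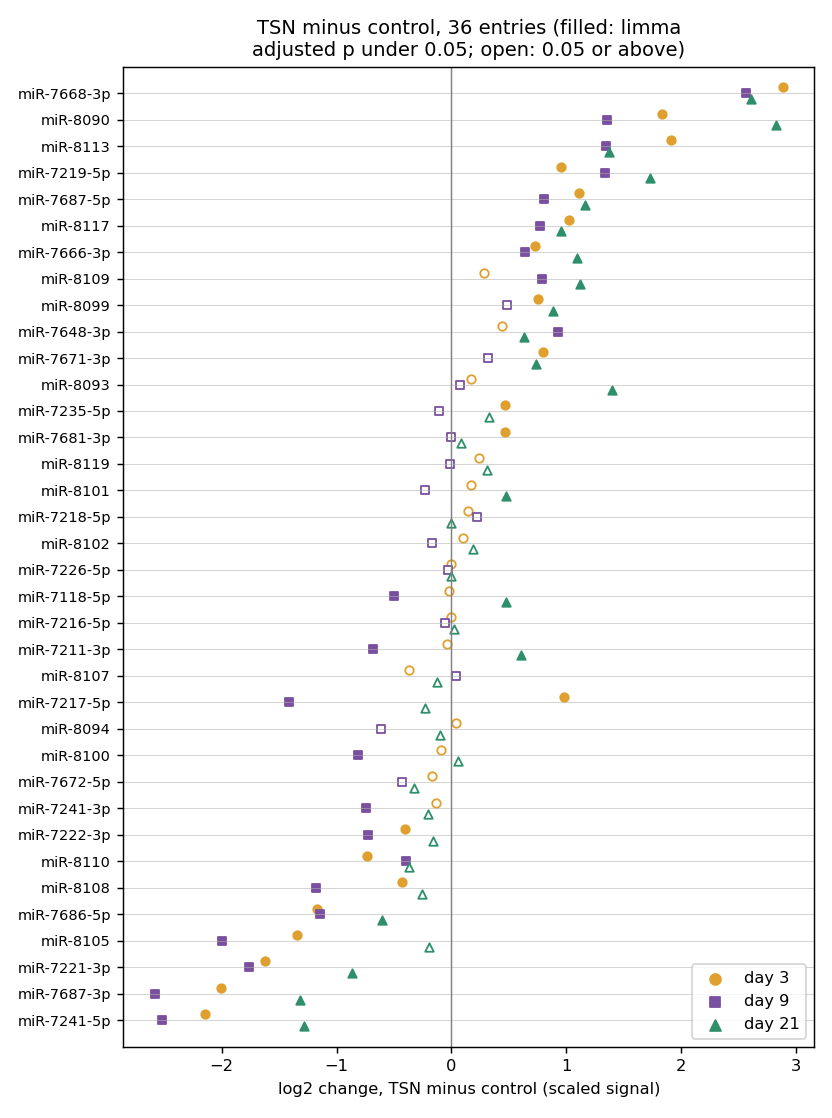
Log2 change of scaled signal, TSN minus control (horizontal axis), at days 3, 9 and 21 for 36 of the 40 entries tested, leaving out 4 that lay at the floor on every array; filled symbols had a limma adjusted p under 0.05. miR-7668-3p lies between 2.56 and 2.89 at all 3 days, and miR-7217-5p moves between 0.98 at day 3 and -1.41 at day 9.

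miR-7241-5p and miR-7687-3p were lower in TSN at all 3 days after scaling, and their mean unscaled log2 signals were lower there too. The unscaled signal of miR-7241-5p was 5.18 to 7.45 on TSN arrays and 7.13 to 10.66 on control arrays, and that of miR-7687-3p was 5.06 to 12.4 on TSN arrays and 6.78 to 14.6 on control arrays. The 75th percentile of the same arrays ranged from 73.5 to 1748. Both were above background on 0 TSN arrays and on 8 control arrays. After scaling, with all TSN arrays at the floor, miR-7241-5p came out 4.41-fold, 5.73-fold and 2.43-fold lower in TSN at days 3, 9 and 21 (limma adjusted p = 0.000547, 7.91e-05 and 0.0298). miR-7687-3p came out 4.01-fold, 5.98-fold and 2.50-fold lower (adjusted p = 0.00102, 6.06e-05 and 0.0252). These folds are not strict bounds, since control arrays not above background enter the control means. At day 21, 1 control array lay at the floor for each entry. The folds are relative to the brightness of the arrays, and the unscaled changes were smaller. With neither scaling nor a floor, the log2 change was -0.63, -0.69 and -0.17 at days 3, 9 and 21 for miR-7241-5p, and every TSN array lay below every control array of its day. For miR-7687-3p it was -0.45, -0.34 and -0.12, and the arms were apart at day 3 and overlapped at days 9 and 21. The other entries called lower after scaling had higher unscaled signals in TSN, by 1.23 to 2.45 (log2, no floor) for 6 entries at day 3, 1.57 to 3.17 for 11 at day 9 and 1.69 to 1.95 for 2 at day 21.

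**Figure D4:**
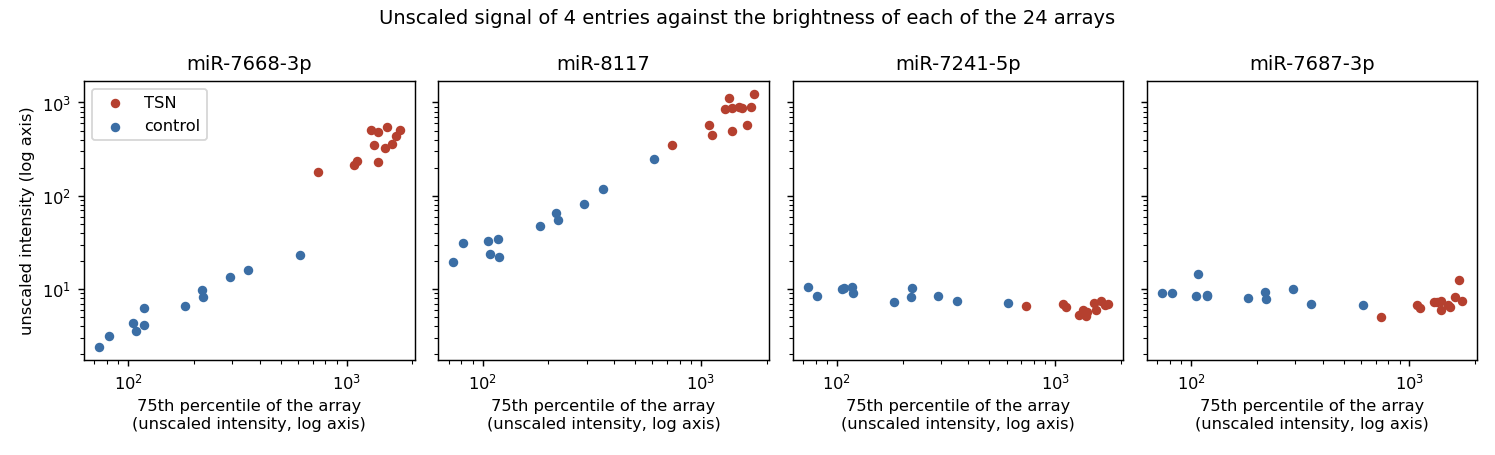
Unscaled intensity of 4 entries (vertical axis, log scale) against the 75th percentile of each of the 24 arrays (horizontal axis, log scale), with TSN and control arrays in different colours. miR-7668-3p and miR-8117 rise with the brightness of the array, while miR-7241-5p and miR-7687-3p lie between 5.06 and 14.6, with TSN arrays at 5.06 to 12.4 and control arrays at 6.78 to 14.6.

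After scaling, the strands of a hairpin did not always move alike. In hairpin 7687 the 5p strand was called higher in TSN at all 3 days, by 0.81 and 1.16 at days 9 and 21. At day 3 no control array was above background for it, and only the bound given above applies. The 3p strand was lower after scaling as described, with no TSN array above background. In hairpin 7241 the 3p strand was above background on all 24 arrays and lower at day 9. The 5p strand was lower after scaling at all 3 days as described, with no TSN array above background. In hairpin 7221 the 3p strand was above background on 12 TSN and 7 control arrays and the 5p strand on 7 TSN and 0 control arrays. The difference between strands was not tested. Among the neighbours on chromosome 2, miR-7221-3p and miR-7222-3p were both lower at days 3 and 9. Of the entries that share a seed, miR-8113 was higher at all 3 days and miR-8119 passed at none, with changes of 0.24, -0.01 and 0.31.

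TSN day 21 against TSN day 9 lies within 1 slide. Of the 40 entries, 16 were higher at day 21 and 0 lower, where 31.3% of all 441 miRNAs were higher and 13.6% lower, 44.9% in all, and the median change was 0.37 over the 40 and 0.18 over all. At an unadjusted p under 0.05, 1 entry was lower (miR-7218-5p, -0.24, limma adjusted p = 0.0821). All 16 were above background on all 8 arrays, and the arrays of the groups did not overlap for 11 of the 40, against 39% of all. miR-8093 led with 1.51 (SE 0.21, limma adjusted p = 1.78e-05), at 65.2, 45.4, 65.7 and 77.0 unscaled at day 21 and 20.4, 12.9, 17.7 and 33 at day 9, where 3 of the 4 arrays lay at the scaled floor. miR-8090 was higher by 1.47 (SE 0.21, adjusted p = 2.74e-05), at 185, 64.5, 171 and 160 at day 21 and 60.6, 39.5, 83.1 and 38 at day 9, where 1 array of day 21 lay within the day 9 range. miR-8108 was higher by 0.70 (SE 0.14, adjusted p = 0.00036). The number of higher entries fell to 3 without scaling, with a percentile over all probes and with normexp background correction.

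Control day 9 against control day 3, also within 1 slide, gave 1 entry higher (miR-7217-5p, 0.80, SE 0.23, limma adjusted p = 0.029) and 2 lower (miR-7666-3p, adjusted p = 0.0225, and miR-8109, -0.63, adjusted p = 0.0443), where 9.3% of all 441 were higher and 4.31% lower, 13.6% in all. For miR-7666-3p no array of either control group was above background, so no size is given, and miR-8109 turned with the total gene signal (0.63). For miR-7217-5p not every array of either control group was above background. The arrays of the groups did not overlap for 2 of the 40, against 17.9% of all. When an array was left out, 0 or 1 entries were higher and 0 to 5 lower, with 5 lower without control day 3 replicate 2. With any 1 array left out, at least 1 of the 2 counts changed.

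The difference between TSN and control changed from day 3 to day 9 for 3 entries, all downward. Of all 441 miRNAs, 3.85% went up and 14.5% down, 18.4% in all. TSN days 3 and 9 lay on different slides, so change of effect and slide cannot be told apart. For miR-7217-5p the change of effect was -2.39 (SE 0.33, limma interaction adjusted p = 9.38e-05), for miR-8108 -0.75 (SE 0.19, adjusted p = 0.00837) and for miR-7681-3p -0.47 (SE 0.16, adjusted p = 0.0494). For miR-7681-3p all 4 TSN arrays of day 9 and all control arrays lay at the floor, so its value is the day 3 difference from the floor. For miR-7217-5p 1 TSN array of day 9 lay at the floor. Not every control array of either day was above background for miR-7217-5p and miR-8108. The unscaled signal of miR-7217-5p was higher in TSN at both days. It was 44.7 to 87.1 against 2.14 to 8.16 at day 3, and 18.8 to 37.1 against 3.45 to 16.8 at day 9. The count of 3 became 10 without TSN day 9 replicate 3, 7 without TSN day 3 replicate 3 and 5 without control day 9 replicate 2.

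From day 9 to day 21 the difference between the arms changed for 10 entries, all upward. Of all 441, 23.4% went up and 12.2% down, 35.6% in all. Control days 9 and 21 lay on different slides scanned on different days, so change of effect and slide cannot be told apart. miR-8105 had 1.80 (SE 0.34, limma interaction adjusted p = 0.000727), miR-8090 1.47 (SE 0.30, adjusted p = 0.00104) and miR-8108 0.92 (SE 0.19, adjusted p = 0.00122). All control arrays of miR-8090 lay at the floor, so its value is that of TSN day 21 against TSN day 9. With the total gene signal miR-8108 turned in both changes of effect, to 0.67 from day 3 to day 9 and to -0.57 from day 9 to day 21. Some of its control arrays at each of these days were not above background. The median over the 40 was 0.40 and over all 441 was 0.22.

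The entries seen above background were rich in G. Among those with a RefSeq sequence, the median share of G was 43.5% in the 39 seen on at least 1 array and 25.5% in the 138 seen on none, and the median GC content was 63.6% and 52.4%. Runs of 4 or more G stood in 12 of 39 (30.8%) and 8 of 138 (5.80%), and in 5 of the 8 seen on all arrays. The longest is the run of 10 G that ends miR-8110. Among the other 1431 miRNAs with a sequence, the median share of G was 34.8% in the 412 seen and 22.7% in the 1019 not seen. Across the 32 entries tested with a sequence, the share of G and the change in TSN had a Spearman rho of 0.20, 0.33 and 0.40 at days 3, 9 and 21. This is a description over miRNAs of the same arrays, which are not independent.

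**Figure D5:**
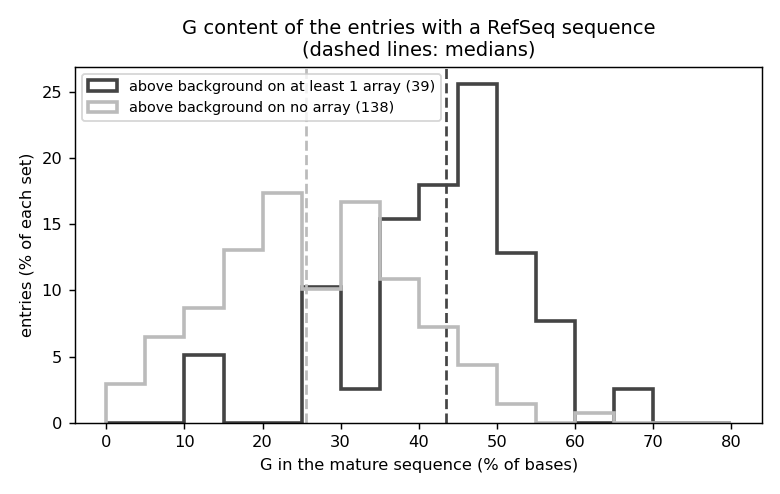
Distribution of the share of G in the mature sequence (horizontal axis, percent of bases; vertical axis, percent of each set in bins of 5) for the 39 entries above background on at least 1 array and the 138 above background on none; dashed lines mark medians. The medians are 43.5% and 25.5%.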

How the data were processed

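Serum exosome miRNA of 24 samples was hybridised to one-colour Agilent arrays. The deposited scanner files hold background-subtracted spot intensity from Feature Extraction 10.7.1.1, per the file headers. The authors' deposited table of values, taken as log2 with scaling and centring unknown, served as an alternative; its columns correlated with their own arrays at 0.956 to 0.982, and 23 of 24 matched their own array best. Depth has no meaning for arrays, and their number limits the precision. Groups came from the sample labels.

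Spots of a probe were averaged, the probe with the highest mean scaled signal stood for a miRNA, and signals were scaled by the 75th percentile of each array, taken over 261 probes that all 24 arrays showed well above background. Values under a floor of 0.0135 were set to it before log2. Tests used limma 3.58.1 in R 4.3.3 on all 24 arrays, 1 mean per group, over 441 miRNAs, with Benjamini-Hochberg adjustment at 0.05. Of these, 7 (4 of them members) were at the floor on every array and got a change of 0 and p of 1. Array counts and shares were compared by exact two-sided permutation. Fold bounds set the bright group's mean against the dim group's higher of its own signal and the lowest signal well above background. The bright group's mean includes any of its arrays not above background, and the fold is then not a strict bound.

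The members and lists were chosen with earlier results of these data known. Values were named by rule: entries above background on all arrays, the 8 highest and 8 lowest calls without overlap per day, the 3 smallest adjusted p per direction in other comparisons, and entries sharing a seed with these. Same-numbered arrays of the arms at day 9 deviated together (r 0.204 to 0.357), though the arms lay on different slides. The main fit did not pair them, and a replicate block was run as an alternative. Alternatives were other scalings, none, quantile normalization, normexp (offset 50), a lower floor, other filters, probe averaging, the authors' values, only the groups compared, a replicate block and leaving out each array. Scripts were tested on simulated data.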

Additional observations from a re-analysis of the deposited data

Results flagged for a closer look

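One array stood apart from the other 3 of its group, by a gap above Dixon's 95% critical share of the group's range, in 10 of 131 groups of values. Chance flags about 1 in 20 groups. Scaled log2 levels of TSN day 3 replicate 2 were -4.627 for miR-7221-3p, -4.485 for miR-7666-3p, -5.473 for miR-8093 and -1.995 for miR-8109, each above the other 3 arrays. That array had the lowest 75th percentile of the TSN arrays (737). TSN day 21 replicate 2 was low for miR-8090 (-4.072) and miR-7671-3p (-5.662), and had 34 entries above background, against 40 to 41 on the other 3. TSN day 3 replicate 3 was high for miR-7687-5p (-3.392), and TSN day 9 replicate 4 was high for miR-8093 (-5.398, the other 3 at the floor). The entries' share of summed signal was 5.422% on TSN day 9 replicate 3, against 4.66% to 4.74% on the other 3.

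The difference between TSN and control changed between days by the limma interaction for 13 values. Slide changed between these days too, as stated above, and the parts of day and slide cannot be told apart. From day 3 to day 9 it moved by -2.391 for miR-7217-5p, -0.7519 for miR-8108 and -0.4663 for miR-7681-3p. The limits of background and floor given above apply to these values. From day 9 to day 21 it moved by 1.798 for miR-8105, 1.475 for miR-8090, 1.32 for miR-8093, 1.293 for miR-7211-3p, 1.183 for miR-7217-5p, 0.9719 for miR-7118-5p, 0.919 for miR-8108, 0.8999 for miR-7221-3p, 0.869 for miR-8100 and 0.7042 for miR-8101.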

How the results depend on the processing

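Of 77 values named for single entries, 8 kept their direction and their side of the threshold under all alternatives run for them: miR-7668-3p (0.951 to 3.10) and miR-8117 (0.49 to 1.98) at days 3, 9 and 21, and miR-7241-5p and miR-7687-3p at day 9. The dim second probe of miR-7668-3p, described above, did not show its change. Alternatives other than leaving out an array gave 978 values, of which 762 kept both, 152 lost the threshold, 16 gained it and 48 reversed. Leaving out an array gave 664 values, of which 45 lost the threshold, 4 gained it and 0 reversed. The cause of the changes was not tested. Scaling alternatives are read relative to the median miRNA where that median moved by over 0.1, as it did without scaling at day 9. With neither scaling, that reading nor a floor, the day 9 log2 change was -0.69 for miR-7241-5p and -0.34 for miR-7687-3p. The arms overlapped there for miR-7687-3p. Without scaling, the floor is an unscaled signal of 9.63.

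The counts of entries called, against 12 higher and 8 lower at day 3, 9 and 13 at day 9, 15 and 4 at day 21, 16 and 0 for TSN day 21 against TSN day 9, and 1 and 2 for control day 9 against control day 3, moved as follows. Without scaling they were 5 and 14 at day 3, 4 higher at day 9, 7 and 11 at day 21, and 3 and 1 for TSN day 21 against day 9. With normexp, 0 were lower at day 3, 3 at day 9 and 0 at day 21, and 3 were higher for TSN day 21 against day 9. The total gene signal gave 7 higher at day 3, 7 lower at day 9, 9 higher at day 21 and 7 higher for TSN day 21 against day 9. The percentile over all probes gave 2 lower at day 21, and 3 and 1 for TSN day 21 against day 9. Spike-ins gave 8 lower at day 21, and 4 and 1 for TSN day 21 against day 9. Testing all 1881 miRNAs, with no filter on dim ones, gave 20 lower at day 9 and 2 lower at day 21. Testing only miRNAs above background on all 24 arrays, which leaves 10 entries, gave 2 and 2 at day 3, 1 and 5 at day 9, 3 and 1 at day 21 and 6 higher for TSN day 21 against day 9. For that last comparison, a floor 0.5 times as high gave 10 and 2, quantile normalization 2 lower, and the authors' values and the mean of probes 1 lower each.

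Control day 9 against control day 3 gave 0 higher and 0 lower with the percentile over all probes, the authors' values, no filter, no scaling, normexp, only miRNAs above background on all arrays, only the groups compared, and the total gene signal. It gave 0 and 1 with spike-ins, 0 and 5 with quantile normalization, 1 lower with the lower floor and 0 lower with the mean of probes. The change of effect from day 3 to day 9, 3 entries, became 5 with the percentile over all probes, 7 with the authors' values, 6 with spike-ins, 6 with quantile normalization, and 0 with normexp, the total gene signal or only miRNAs above background on all arrays. The change from day 9 to day 21, 10 entries, became 0 with normexp, 3 with only miRNAs above background on all arrays and 4 with the total gene signal.

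When each array was left out in turn, the counts ranged over 10 to 13 higher and 6 to 9 lower at day 3, 9 to 11 and 10 to 16 at day 9, 13 to 15 and 2 to 5 at day 21, 11 to 20 higher for TSN day 21 against day 9 with 0 lower throughout, and 0 to 1 and 0 to 5 for control day 9 against day 3. The change of effect ranged over 2 to 10 entries between days 3 and 9 and 9 to 15 between days 9 and 21.

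Same-numbered arrays deviated together in all pairs at day 9 only, where all 4 pairs correlated by over 0.1. With the replicate block the day 9 count stayed at 9 higher and 13 lower, also with only those groups in the fit, an alternative chosen after seeing the data. In the other comparisons the block gave 12 and 8 at day 3 and 15 and 4 at day 21. It gave 15 higher for TSN day 21 against day 9, and 1 and 1 for control day 9 against day 3. The block took miR-8109 in control day 9 against day 3 and miR-7681-3p in the change from day 3 to day 9 out of the calls.

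Without scaling at day 3, the turned values were miR-7671-3p -0.63 and miR-8110 0.0129, and that of miR-7671-3p passed (limma adjusted p = 0.0322). Without scaling at day 9, the turned values were miR-8090 -0.00972, miR-7222-3p 0.11, miR-7118-5p 0.61, miR-7241-3p 0.36, miR-8100 0.29 and miR-8110 0.71. Without scaling in control day 9 against control day 3, the turned value was miR-7666-3p 0.00. With normexp background correction at day 3, the turned values were miR-7671-3p -0.24, miR-8105 0.0211, miR-7686-5p 0.35, miR-8110 1.27, miR-7118-5p 1.90, miR-7216-5p 1.51, miR-7241-3p 1.21 and miR-8100 1.25. All but those of miR-7671-3p, miR-8105 and miR-7686-5p passed 0.05 in the turned direction. With normexp background correction at day 9, the turned values were miR-8090 -0.0501, miR-8113 -0.00839, miR-7686-5p 0.58, miR-7118-5p 1.89, miR-7216-5p 1.70, miR-7235-5p 1.57, miR-7241-3p 0.81, miR-8100 0.84, miR-8101 1.46, miR-8102 1.12 and miR-8110 2.09. All but those of miR-8090 and miR-8113 passed 0.05 in the turned direction. With normexp background correction at day 21, the turned values were miR-8113 -0.0275, miR-7666-3p -0.18, miR-7686-5p 0.41, miR-7241-3p 0.76 and miR-8110 1.29. Those of miR-7241-3p and miR-8110 passed 0.05 in the turned direction. With normexp background correction in control day 9 against control day 3, the turned value was miR-7666-3p 0.0248. With the 75th percentile over all probes at day 9, the turned values were miR-7118-5p 0.0863 and miR-8110 0.19. With the 75th percentile over all probes in control day 9 against control day 3, the turned value was miR-7666-3p 0.0778. With labelling spike-ins at day 9, the turned value was miR-8110 0.0424. With the total gene signal at day 9, the turned values were miR-8113 -1.45, miR-8109 -1.19 and miR-7222-3p 0.12. With the total gene signal at day 21, the turned value was miR-8113 -1.32. With the total gene signal in control day 9 against control day 3, the turned values were miR-7666-3p 0.11 and miR-8109 0.63. With the total gene signal for the change of effect from day 3 to day 9, the turned value was miR-8108 0.67. With the total gene signal for the change of effect from day 9 to day 21, the turned value was miR-8108 -0.57. With quantile normalization at day 21, the turned value was miR-7118-5p -0.10. With the mean of a miRNA's probes for the change of effect from day 3 to day 9, the turned value was miR-7681-3p 0.00.

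Signal over background limits 30 of the 40 entries tested, which were not above background on all 24 arrays. Arm and slide cannot be told apart, and neither can slide and a change of effect between days. The 4 arrays a group limit precision, and entries not well above background are not shown to be absent.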
